A study of Mus musculus with 8 samples.

Results

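The miR-140 arms are the pair of mature microRNAs (miRNAs) cut from the hairpin of Mir140, mmu-miR-140-5p from its 5′ side and mmu-miR-140-3p from its 3′ side. They were taken by name, as 2 of the 1966 miRNA names in the deposited count table, of which 1003 had at least 1 count. Abundance was measured by miRNA-Seq in primary chondrocytes that were isolated from femoral head cartilage of wild-type mice, aged 3 weeks per the methods of the study, and grown in serum-containing medium. One group of libraries came from cells that received vehicle (n = 4) and the other from cells exposed for 24 h to IL-1β (n = 4), an inflammatory cytokine that signals through NF-κB, dosed at 1 ng/ml. No gene was altered in either group. Whether the 4 libraries of a group came from separate mice or from wells of a single preparation was not given in the sources used here, so the p-values measure the spread between these libraries only.

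A miRNA hairpin is cut into a short duplex, and the strand loaded into an Argonaute protein guides it to messenger RNAs that pair with the seed, bases 2 to 8 of the miRNA. miR-140 is the best known cartilage miRNA. It is hosted by Wwp2, which encodes a ubiquitin ligase, and its transcription in chondrocytes depends on the cartilage factor SOX9. Mice without miR-140 have growth plate defects and develop early osteoarthritis-like changes, and the matrix-degrading protease Adamts5 is a known target of the 5p arm.

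miR-140-3p and miR-127-3p were the leading miRNAs, at averages of 14.8% and 14.7% of counts over the 8 libraries. The share of miR-140-3p was 15.7% ± 0.637 in the vehicle group and 13.9% ± 1.26 in the IL-1β group (SD, n = 4). miR-140-5p was present at 1 count for every 495.45 counts of the 3p arm. Both arms were lower on average in the IL-1β group, the 3p arm by 9.96% and the 5p arm by 13.5% of the vehicle mean, and neither difference passed the test across all miRNAs. The ratio of the arms did not differ between the groups beyond the spread between libraries.

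The hairpin of Mir140 lies on the plus strand at chr8:107551244-107551313 (GRCm38, the assembly also called mm10). It sits within Wwp2 (chr8:107436365-107558595, same strand). In a protein-coding transcript of Wwp2 the hairpin is in the intron between exons 16 and 17, with 1108 nt to the exon before it and 963 nt to the exon after it. A further transcript of Wwp2, annotated as a retained intron, covers the hairpin with its exon 1. The 70-base RefSeq hairpin (GRCm38.p6) is shown with the 3p arm, bases 45 to 65, in capitals, because nearly all counts of this hairpin fell there:

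Mir140 hairpin: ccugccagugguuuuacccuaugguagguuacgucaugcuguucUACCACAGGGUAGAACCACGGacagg

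In the predicted minimum free energy fold of this hairpin, 20 of the 21 bases of the 3p arm were paired. The 3p sequence occurred in 1 hairpin of the RefSeq set. The rest of the genome was not searched for it. Of the arms, 1 had a mature entry in that set. The mature miR-140-3p, at chr8:107551288-107551308, is printed with its seed in capitals beside miR-497b (chr11:70234763-70234786, minus strand), the only other mouse miRNA of the set with the same seed:

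miR-140-3p: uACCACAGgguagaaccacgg

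miR-497b: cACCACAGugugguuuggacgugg

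miR-497b had 0 counts in all 8 libraries, so miR-140-3p was the only counted miRNA of the set with the listed seed ACCACAG. Counts were given per miRNA name, so the seed of single reads was not seen. The upper limit that 0 counts allow, 3 counts, was 1.91 CPM (counts scaled to a common library total) in the deepest library and 4.87 CPM in the shallowest.

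**Figure D1:**
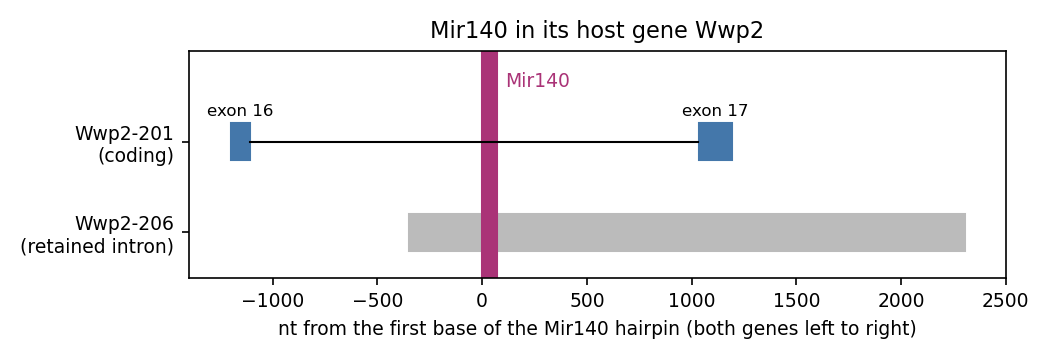
Position of the Mir140 hairpin in Wwp2, in nt from the first base of the hairpin, to scale. Blue boxes are exons 16 and 17 of the coding transcript, the line between them is the intron, and the grey box is exon 1 of the retained-intron transcript. The hairpin (purple) lies 1108 nt after exon 16 and 963 nt before exon 17.

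Library totals ranged from 616475 to 1568367 counts. The spread was uneven: over the 195 miRNAs that averaged 50 or more counts, the SD of the log2 deviations from the other libraries of the group was 0.40 in IL-1β replicate 4 and 0.15 to 0.23 in the other 7. Of the chondrocyte markers, which were the arms of miR-140 and miR-455-3p, 96.9% of counts were those of miR-140 itself, so that they give no independent check of cell identity. miR-455-3p alone took 0.5003% to 0.566% of counts in the vehicle libraries and 0.293% to 0.495% in the IL-1β libraries. Muscle markers had 0 counts, as did the liver marker miR-122-5p and the haematopoietic markers miR-223-3p and miR-451a. The detected haematopoietic markers, 2 of 6, took 0.00441% to 0.00638% of counts with vehicle and 0.00260% to 0.00471% with IL-1β, and the liver or serum markers, 2 of 3 detected, took 0.00521% to 0.00714% and 0.00714% to 0.0109%. Endothelial and epithelial markers had 8 and 10 counts in all, with 1 of 2 and 3 of 4 detected, at most 0.000288% and 0.000576% of a library. The part of these markers in the results was not tested. In bulk RNA, fewer cells of a type and less of a miRNA per cell cannot be told apart.

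miR-140-3p is the arm on which most counts fell. It had 139211, 245076, 254198 and 96666 counts in vehicle replicates 1 to 4 and 87651, 163356, 103823 and 103063 in IL-1β replicates 1 to 4. On the scale of normalized CPM, which divides by the library total after scaling with TMM (trimmed mean of M values, a correction for composition), these were 147610, 163549, 158809 and 150579 with vehicle. With IL-1β they were 140209, 137675, 151712 and 129168 normalized CPM. IL-1β replicate 3 lay within the vehicle range, and the other 3 IL-1β libraries lay below it.

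The mean of miR-140-3p was 155137 ± 7341 normalized CPM in the vehicle group and 139691 ± 9302 in the IL-1β group (SD, n = 4). The log2 fold change was -0.15 (SE 0.0803, 95% interval -0.32 to 0.01), with a p from the edgeR quasi-likelihood test of 0.546 after adjustment over 564 miRNAs (Benjamini-Hochberg). The interval includes 0 and falls of up to 0.32 on the log2 scale. Without IL-1β replicate 4, the IL-1β mean was 143199 normalized CPM and the log2 fold change was -0.11 (edgeR adjusted p = 0.284).

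As a plain share of the library, before TMM scaling, miR-140-3p took 14.97%, 16.2%, 16.2% and 15.3% of counts in vehicle replicates 1 to 4. The shares were 14.2%, 14.3%, 14.9% and 12.04% in IL-1β replicates 1 to 4. All 4 IL-1β libraries lay below all 4 vehicle libraries on this measure, the closest pair being vehicle replicate 1 and IL-1β replicate 3, whose 95% Wilson intervals overlapped (14.89% to 15.04% and 14.86% to 15.02%). The groups were apart in this direction for 3.37% of the 564 tested miRNAs. The difference in mean share was -1.79 percentage points (two-sided exact permutation p = 0.0286, which is the smallest 4 against 4 libraries can give). Adjusted over the 5 exact tests made on the arms (the level and the share of each, and their ratio) it was 0.143, the lowest that 1 of these tests alone can reach. With TMM-scaled totals the groups overlapped and the exact permutation p was 0.0857. Without IL-1β replicate 4 the mean share with IL-1β was 14.5% and the difference was -1.18 percentage points.

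miR-140-3p and miR-127-3p, an imprinted miRNA of the Dlk1-Dio3 locus, were close to each other at the top of every library. miR-140-3p was first in 5 libraries and second in 3, namely vehicle replicate 1, IL-1β replicate 1 and IL-1β replicate 4. In vehicle replicate 1 and IL-1β replicate 1, miR-127-3p had 1.01 counts for each count of miR-140-3p, and in IL-1β replicate 4 it had 1.35. The mean of miR-127-3p was 145945 ± 5082 normalized CPM with vehicle and 148766 ± 17824 in the IL-1β group (SD, n = 4), and its log2 fold change was 0.03 (edgeR adjusted p = 0.963). As a share of counts miR-127-3p led in the IL-1β group, at 14.7% against 13.9% for miR-140-3p, but without IL-1β replicate 4 the order turned, to 14.2% against 14.5%. That library, at 173805 normalized CPM of miR-127-3p, lay above the other 3 libraries of its group (132328 to 147540), and without it the IL-1β mean was 140419, below the vehicle mean, with a log2 fold change of -0.05 (edgeR adjusted p = 0.740). miR-92a-3p, a member of the miR-17-92 family with more than one locus, was the third in all 8 libraries, at 115000 ± 882 and 115639 ± 6133 normalized CPM (SD, n = 4), the IL-1β mean being 113013 without replicate 4. Counts of different miRNAs in a library also reflect how well each is ligated and amplified, so this order is one of counts and not of molecules.

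**Figure D2:**
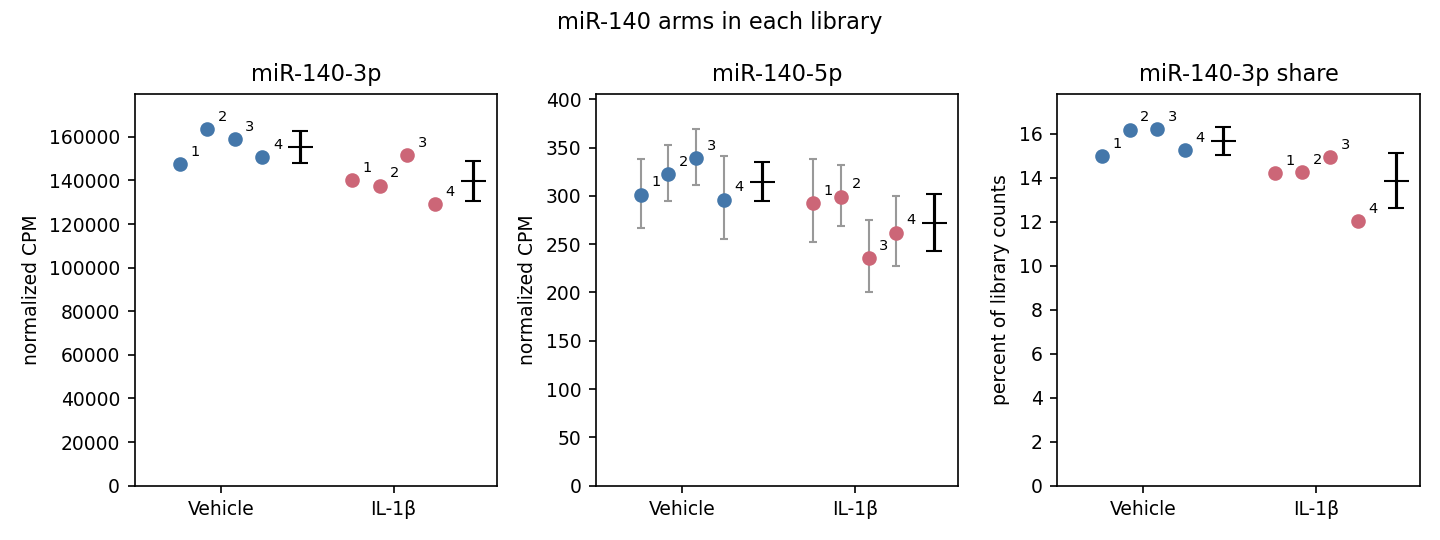
Left and middle, normalized CPM of miR-140-3p and miR-140-5p in each library, and right, miR-140-3p as a percent of library counts. Points are libraries marked with their replicate number, black bars are group means ± SD (n = 4), and grey bars on miR-140-5p are 95% Poisson intervals. IL-1β replicate 3 lies among the vehicle libraries for the 3p arm in normalized CPM, just below them as a percent of counts (14.94% against 14.97% in vehicle replicate 1), and is the lowest library for the 5p arm.

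miR-140-5p, the arm for which Adamts5 is a known target, was far scarcer. It had 284, 483, 543 and 190 counts in vehicle replicates 1 to 4 and 183, 355, 161 and 209 in IL-1β replicates 1 to 4. These were 301, 322, 339 and 296 normalized CPM with vehicle. They were 293, 299, 235 and 262 normalized CPM with IL-1β. The highest IL-1β library, replicate 2, overlapped the vehicle range, and the other 3 lay below it, replicate 1 by little.

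The mean of miR-140-5p was 315 ± 19.96 normalized CPM in the vehicle group and 272 ± 29.6 in the IL-1β group (SD, n = 4), and the exact permutation p of 0.0571 was 0.143 after adjustment over the 5 tests. The log2 fold change was -0.21 (SE 0.101, 95% interval -0.42 to -0.00098). The unadjusted edgeR p of 0.0490 became 0.440 after Benjamini-Hochberg adjustment. In each library the 95% Poisson interval of this arm was wide, for example 255 to 341 normalized CPM in vehicle replicate 4 and 200.3 to 275 in IL-1β replicate 3. These intervals cover counting error only, since reads of amplified libraries are not independent molecules. Without IL-1β replicate 3 the IL-1β mean was 285 normalized CPM and the log2 fold change was -0.16 (edgeR adjusted p = 0.684). As a share of the library, miR-140-5p took 0.0318% ± 0.00207 of counts in the vehicle group and 0.0271% ± 0.00385 in the IL-1β group (SD, n = 4, two-sided exact permutation p = 0.114, 0.143 after adjustment). In the order of abundance within a library, miR-140-5p ranked from 97 to 116.

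Of the arms, 0 of 2 were called, where a call needed an adjusted p under 0.05 and an absolute log2 fold change over 0.3 in the edgeR test, 1 of 2 had an unadjusted p under 0.05, and DESeq2 called 0 of 2. An unadjusted p under 0.05 was found for 63 of the 564 tested miRNAs (11.2%). Over all 564 tested miRNAs 1.95% were called in either direction and 0.532% were called lower with IL-1β. On normalized CPM the IL-1β libraries all lay below the vehicle libraries for 3.01% of the tested miRNAs and for neither arm. In the order of unadjusted p, miR-140-5p was in place 62 and miR-140-3p in place 74 of 564.

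**Figure D3:**
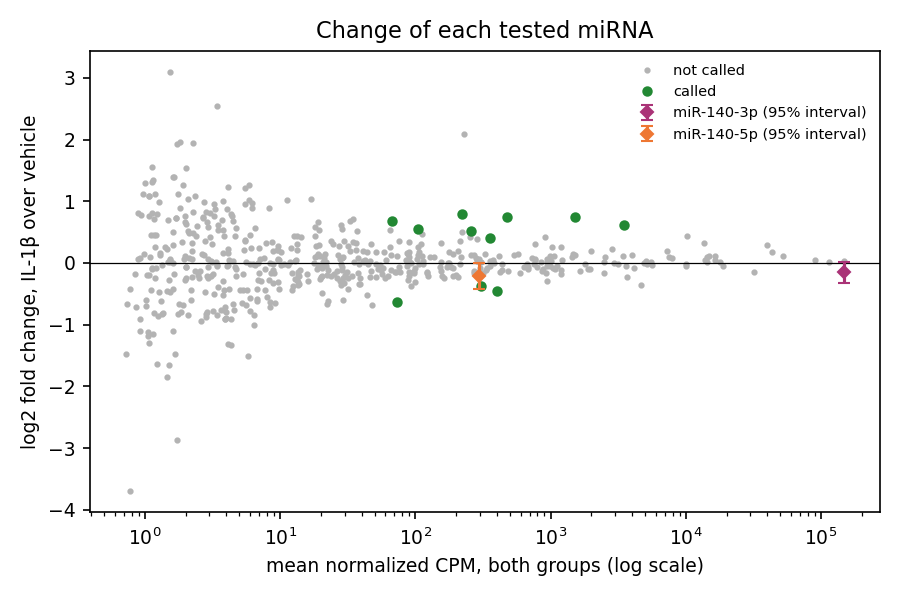
Log2 fold change of each of the 564 tested miRNAs against its mean normalized CPM (log scale), with the 11 called miRNAs in green and the arms of miR-140 as diamonds with 95% intervals. miR-140-3p lies at the far right, at -0.15, and miR-140-5p at -0.21, neither called.

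Both arms are cut from the same transcript. Their counts in a library share its total, so their ratio needs no scaling between libraries. The 3p arm had 490, 507, 468 and 509 counts per count of the 5p arm in vehicle replicates 1 to 4. The ratio was 479, 460.2, 645 and 493 in IL-1β replicates 1 to 4. IL-1β replicate 3 stood above the other 7 libraries, which ranged from 460.2 to 509.

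The mean log2 ratio was 8.95 ± 0.056 in the vehicle group and 9.01 ± 0.22 in the IL-1β group (SD, n = 4), a difference of 0.06 (exact permutation test, two-sided p = 0.886, adjusted over the 5 tests 0.886). In the vehicle group this spread was below the SD that counting alone gives the log2 ratio, 0.062 to 0.105 depending on the library. In the IL-1β group it exceeded the counting SD of 0.0767 to 0.114, and without replicate 3 it was 0.0501. Expressed as a share, the 5p arm made up 0.155% of miR-140 counts in IL-1β replicate 3, with a 95% Wilson interval of 0.133% to 0.181% that overlapped those of 4 of the other 7 libraries. In the other libraries the share was 0.196% to 0.217%. Without IL-1β replicate 3 the difference in mean log2 ratio turned to -0.05 (exact permutation p = 0.286).

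**Figure D4:**
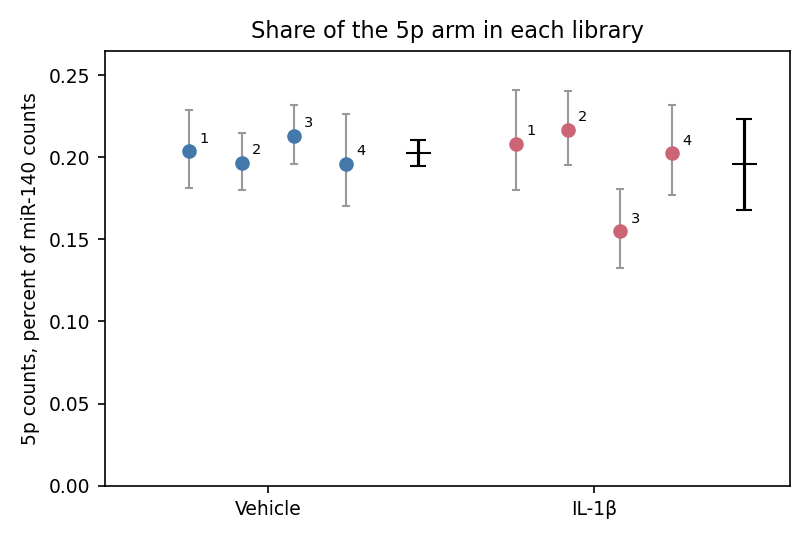
Counts of the 5p arm as a percent of the counts of both arms in each library, marked with its replicate number. Grey bars are 95% Wilson intervals (counting error only) and black bars are group means ± SD (n = 4). IL-1β replicate 3, at 0.155%, is the lowest library, and the other 7 lie between 0.196% and 0.217%.

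The change of the arm ratio was also tested in a model across the 142 hairpins for which both arms were over 1 CPM in at least 4 of the 8 libraries. For miR-140 the change of the log2 ratio was 0.05 (SE 0.124, 95% interval -0.19 to 0.30, edgeR adjusted p = 0.924). It turned to -0.05 on leaving out IL-1β replicate 3 (edgeR adjusted p = 0.923), was 0.11 on leaving out IL-1β replicate 2 (0.862) and was 0.07 on leaving out IL-1β replicate 4 (0.859). Across these hairpins 1.41% were called. The 2 called were miR-210, a hypoxia-induced miRNA whose ratio moved toward its 5p arm (-0.67, SE 0.155, edgeR adjusted p = 0.00266), and miR-877, which is spliced out of an Abcf1 intron and moved toward its 3p arm (0.69, SE 0.185, edgeR adjusted p = 0.0143). The call of miR-210 was lost with limma alone (adjusted p = 0.429) of 12 alternatives. That of miR-877 was lost in 6 of the 12, namely with limma (0.429), with DESeq2 (0.130) and on leaving out vehicle replicate 2, 3 or 4, or replicate 1 of the IL-1β group (edgeR adjusted p = 0.0549, 0.121, 0.0767 and 0.101). By the size of its change miR-140 was in place 128 of 142.

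The arms of a hairpin differ in sequence, so the ratio of their counts also reflects how well each is ligated and amplified. By counts, the miR-140 hairpin was among the most one-sided of the 142. Its mean log2 ratio over all 8 libraries was 8.97, against a median absolute value of 3.51, and 12 hairpins were more one-sided in either direction. By bias toward the 3p arm it was in place 6, where the first 3 were miR-92b, miR-22 and miR-320, at mean log2 ratios of 11.5, 11.3 and 11.0. Their 5p arms held 60, 42 and 21 counts over all libraries, so that these ratios are far less certain than that of miR-140, whose 5p arm held 2408 counts. The strongest bias toward the 5p arm was that of miR-191, miR-10b and miR-30d, at -12.1, -12.1 and -10.6, and their 3p arms held 28, 17 and 49 counts, so that these ratios are likewise uncertain. Among the 24 hairpins with a mean of at least 50 counts for each arm, miR-140 had the second largest bias toward 3p, after miR-127, and its ratio had the smallest SD in the vehicle group (place 24 of 24) and was in place 13 in the IL-1β group.

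**Figure D5:**
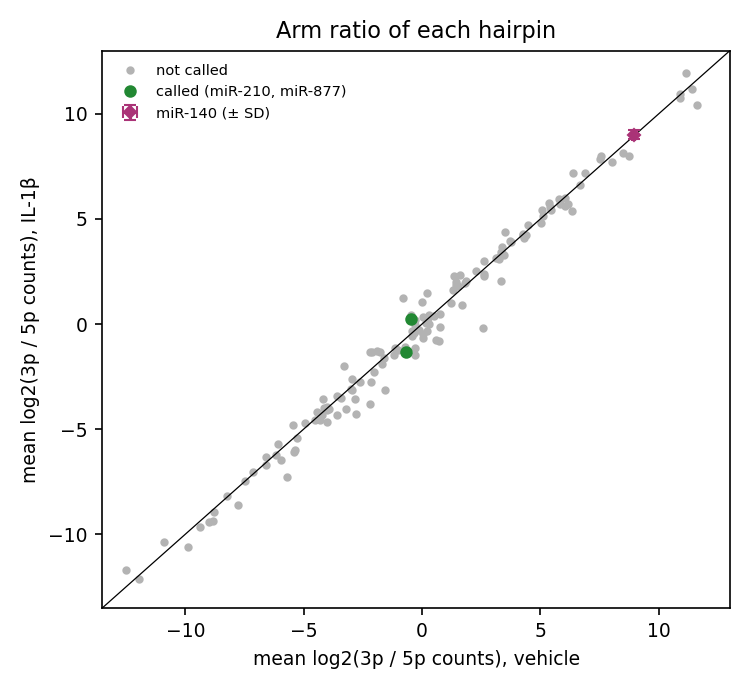
Mean log2 ratio of 3p over 5p counts (0.5 added to each) in IL-1β against vehicle libraries, for 142 hairpins. The diagonal marks an equal ratio in both groups, green points are the 2 called hairpins and the diamond is miR-140 with ± SD (n = 4). miR-140 lies next to the diagonal at 8.94 with vehicle and 9.0 with IL-1β, near the upper end.

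The miRNAs whose pattern over the 8 libraries was most like that of an arm were sought among 194 others that averaged 50 or more counts, by the Pearson correlation of log2(normalized CPM + 1). This is a description over 8 libraries that share their scaling. The miRNAs closest to miR-140-3p were miR-26b-5p (0.88), miR-300-3p (0.87) and miR-2137 (0.79). Those closest to miR-140-5p were miR-455-3p (0.75), miR-877-5p (0.73) and miR-196b-5p (0.66). The arms of miR-140 were less alike (0.45), the 5p arm being in place 43 of 194 for the 3p arm. Without IL-1β replicate 4 these orders changed. For miR-140-3p, miR-26b-5p was in place 6 (0.88), miR-2137 in place 11 (0.85) and miR-300-3p in place 14 (0.83), whereas for miR-140-5p miR-455-3p remained in place 1 (0.81), with miR-877-5p in place 5 and miR-196b-5p in place 8. The arms of miR-140 correlated at 0.28 over these 7 libraries.

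miR-455, the other well known cartilage miRNA, is hosted by the collagen gene Col27a1, and is printed with the seeds of its arms in capitals because its 3p arm was the closest match to miR-140-5p:

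miR-455-3p: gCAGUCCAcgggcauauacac

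miR-455-5p: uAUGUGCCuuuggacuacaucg

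These arms lie on chromosome 4, at chr4:63256904-63256924 and chr4:63256867-63256888, and share no seed with miR-140-3p. miR-455-3p was at 5585, 5056, 5080 and 5053 normalized CPM in vehicle replicates 1 to 4 and at 4508, 4779, 3831 and 3143 in IL-1β replicates 1 to 4. All 4 IL-1β libraries lay below all 4 vehicle libraries, and the log2 fold change of -0.35 (SE 0.103) was not called (edgeR adjusted p = 0.0691). The groups were apart in this direction for 3.01% of all tested miRNAs. It was called lower in 4 of 16 alternatives, namely with no filter on low counts (edgeR adjusted p = 0.00175), with 1 surrogate variable (0.0348), with a replicate block (0.0155) and on leaving out IL-1β replicate 2 (0.01495). Without IL-1β replicate 4 the IL-1β mean was 4373 normalized CPM and the log2 fold change -0.24, with an edgeR adjusted p of 0.0297 but a size under that of a call. Its 5p arm, with 371 counts in all, averaged 50.6 ± 8.66 normalized CPM in the vehicle group and 41.6 ± 10.98 in the IL-1β group (SD, n = 4), a log2 fold change of -0.23 (edgeR adjusted p = 0.753) that ranged, when 1 library was left out, from -0.45 (IL-1β replicate 2) to -0.07 (IL-1β replicate 4). As with miR-140, the 3p arm held most counts.

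A list of 21 other miRNAs described in cartilage or in cartilage disease gave 18 that could be tested. In the edgeR test 0 rose and 0 fell, where 1.95% of all tested miRNAs were called, and DESeq2 called 0. An unadjusted p under 0.05 was found for 4 of the 18, beside 11.2% of all tested miRNAs, a difference from which nothing is read. The log2 fold change was above 0 for 9 and below 0 for 9, with a median of -0.01 beside 0.01 for all 564 tested miRNAs. The highest value was 0.99, of miR-29b-3p, which had 10 counts in all (edgeR adjusted p = 0.760) and moved to 0.46 without vehicle replicate 3 and 2.11 without vehicle replicate 2, and the lowest was that of miR-455-3p. miR-193b-3p, which lay at 1042 normalized CPM with vehicle and 850.5 with IL-1β, followed at -0.29 (SE 0.0871, edgeR adjusted p = 0.0843). Without IL-1β replicate 4 it was also -0.29, with an edgeR adjusted p of 0.0197 and a size just under that of a call. Of the 4 members with an unadjusted p under 0.05, miR-101a-3p was the only one above 0. It averaged 22.5 normalized CPM in the vehicle group and 33.7 in the IL-1β group (log2 fold change 0.61, SE 0.253, edgeR adjusted p = 0.299), and it was called higher without IL-1β replicate 4. miR-26b-5p, the closest match to miR-140-3p over 8 libraries, averaged 223 ± 21.4 normalized CPM in the vehicle group and 191 ± 9.66 in the IL-1β group (SD, n = 4), a log2 fold change of -0.23 (edgeR adjusted p = 0.372). miR-675, cut from the imprinted H19 transcript, was scarce, with 3 counts of its 5p arm in all and 113 of its 3p arm at 13.9 ± 4.46 normalized CPM in the vehicle group and 13.6 ± 5.19 in the IL-1β group (SD, n = 4), for which the log2 fold change was -0.20 (edgeR adjusted p = 0.871) and ranged, when 1 library was left out, from -0.44 (IL-1β replicate 4) to 0.07 (IL-1β replicate 2). miR-199a-3p was listed with 0 counts, whereas its partner miR-199a-5p had 9740.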

How the data were processed

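miRNA-Seq counts of 8 libraries were analyzed. The authors trimmed reads with cutadapt, aligned them to mm10 with STAR (2.4.2a in the submitters' processing notes, another version in the methods of the study) and counted them per mature miRNA with featureCounts, and they deposited the counts with 1 column per library. The methods name a GENCODE annotation. The source of the mature miRNA models and the handling of multi-mapping reads and strand were not given in the sources used here. The methods of the study describe a correction with RUVseq. The deposited columns hold whole numbers and were treated as uncorrected counts, but whether they had been corrected was not tested. No molecular identifiers were described.

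miRNAs over 1 CPM in at least 4 of 8 libraries were compared in edgeR 4.0.16 by its quasi-likelihood test (robust, two-sided, TMM scaling, group as the only term) in R 4.3.3, with Benjamini-Hochberg adjustment over all tested. Calls needed an adjusted p under 0.05 and an absolute log2 fold change over 0.3. The SE was the log2 fold change divided by the square root of F, and intervals used the t quantile of the moderated degrees of freedom. The arm ratio was tested in edgeR with both arms of each library as columns and terms for library, arm and arm by treatment. Single values were compared with an exact permutation test over 70 arrangements (scipy 1.17.1). Hairpins were folded with RNAfold 2.7.2. Sequences were from RefSeq (GRCm38.p6), which held 1675 of the 1966 names, and gene models from GENCODE M21. Both edgeR tests were checked on simulated counts.

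Named miRNAs were the arms of miR-140, the 2 next below miR-140-3p in abundance, those sharing its seed, the 3 most like each arm, the 3 hairpins with the most bias toward each arm, hairpins called in the arm test, and called members of the cartilage list together with the arms of miR-455 and miR-675. miR-193b-3p, miR-101a-3p, miR-29b-3p, the arms of miR-199a and the order at the extremes of the list were chosen after their values were seen. The arms, lists and tests were chosen with earlier results of these data known. Alternatives were size factors by median of ratios, no scaling beyond library totals, miR-140 left out of the totals, DESeq2 1.42.0, limma 3.58.1 for arm ratios, other filters, 1 surrogate variable (sva 3.50.0), a replicate block, other denominators and leaving out each library.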

Additional observations from a re-analysis of the deposited data

Results flagged for a closer look

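Among 59 groups of 4 libraries examined over the miR-140 values and the other named miRNAs, 2 held a library far from the other 3, where chance gives about 1 in 20, and neither concerned an arm of miR-140. miR-455-3p was at 5585 normalized CPM in vehicle replicate 1, against 5053 to 5080 in the other vehicle libraries. miR-320-3p was at 5098 normalized CPM in IL-1β replicate 3, against 4840 to 4853 in the other IL-1β libraries.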

How the results depend on the processing

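The log2 fold changes of both arms stayed below 0 and uncalled under all 16 alternatives, between -0.21 and -0.11 for miR-140-3p (edgeR or DESeq2 adjusted p 0.284 to 0.799) and between -0.30 and -0.16 for miR-140-5p (0.263 to 0.750). The change of the miR-140 arm ratio in the model across hairpins was not called under any of 12 alternatives and ranged from -0.05 to 0.11 over the fits that left out 1 library. It was reversed without IL-1β replicate 3 (-0.0480, edgeR adjusted p = 0.923), as was the difference in mean log2 ratio (-0.0479, against 0.06 with all libraries and -0.05 to 0.11 over the fits without 1 library). The difference in the share of miR-140-3p was -1.54 percentage points of TMM-scaled totals (exact permutation p = 0.0857), -2.45 as a percent of the counts of all other miRNAs (exact permutation p = 0.0286), and between -2.15 and -1.18 without 1 library, where the smallest possible exact p is 0.0571. Deviations of same-numbered libraries correlated at 0.171, -0.345, 0.101 and -0.183. With 4 libraries per group, these correlations cannot decide whether the replicate numbers pair the libraries. With a replicate block the share differed by -1.79 percentage points (exact permutation p = 0.125, the smallest that 4 pairs allow), 19 miRNAs were called in place of 11, and miR-140-3p, miR-140-5p and the arm ratio of miR-140 kept their side (-0.15, -0.21 and 0.06). The number of miRNAs called was 18 with 1 surrogate variable and 6 to 19 without 1 library, being 6 without vehicle replicate 4, 7 without vehicle replicate 2 or IL-1β replicate 3, and 19 without IL-1β replicate 4. In the cartilage list 1 member was called without a filter, with 1 surrogate variable, with the block and without IL-1β replicate 2, each time miR-455-3p (lower), and 1 without IL-1β replicate 4, miR-101a-3p (higher), within a range of 0 to 1 over the fits without 1 library. Of the hairpins, 0 were called by limma, 1 by DESeq2, and 1 to 2 without 1 library. The single call lost with DESeq2, and in each fit without 1 library that made 1 call, was that of miR-877. Values near 0 changed sign, all uncalled: miR-127-3p was at -0.00344 and miR-92a-3p at -0.0200 with library totals only, and miR-92a-3p was at -0.00799 without a filter. Without 1 library miR-127-3p ranged from -0.0538 to 0.0487, miR-92a-3p from -0.0241 to 0.0235 and miR-675-3p from -0.443 to 0.0729. The correlations with the arms over 7 libraries were added after the data were seen. The cause of these changes was not tested.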
